A study of Danio rerio with 8 samples.

Results

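Among 34289 gene IDs, 22 were well represented in the somatic cells of the zebrafish gastrula and scarce in primordial germ cells (PGCs) at the same stage. Each had at least 5 CPM (the estimated read count of a gene as a share of the library total, scaled to a library of 1000000 counts) in both somatic libraries at 7 hours post fertilisation (hpf). The genes were chosen by these CPM values of 7 hpf. In each, the lower of the somatic libraries held at least 4 times the CPM of the higher PGC library, and the higher PGC library stayed under 20 CPM. A reference table of gene IDs named 17 of them and left 5 without a name. By known role, 7 encode regulators of transcription, led by SOX2, lhx5 and PRDM14, and 5 encode signalling, matrix or membrane proteins. Another 3 belong to RNA processing or metabolism, and 2 carry clone-based names with no role given here. The libraries used here formed 4 groups of 2. They were PGCs and somatic cells at 24 hpf, the pharyngula stage, and PGCs and somatic cells at 7 hpf, during gastrulation. The paper also profiled RNA at other stages. It describes these libraries as additional, deeper sequencing of its 7 and 24 hpf replicates for an analysis of splicing.

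All embryos came from 1 line that carried the transgene kop:egfp-f'nos3'UTR-cry:dsred, in which a germ-line promoter and the nos3 untranslated region bring membrane-bound EGFP to the PGCs, with a dsRed mark in the lens. Cells were parted by fluorescence-activated sorting, so a PGC library holds the EGFP-positive gate and a somatic library the rest of the embryo as 1 mixture of tissues. Total RNA was sequenced from bulk material. In such samples, fewer cells of a type and less RNA per cell cannot be told apart. Library totals ranged between 6997561 and 21073240 estimated counts, and 3 counts, the limit that a count of 0 allows, stood for 0.142 to 0.429 CPM. Germ cell identity was checked on nanos3, an RNA regulator of germ plasm, which stood at 804 and 887 CPM in PGCs and at 0.517 and 0.288 CPM in soma at 7 hpf, and at 97.6 and 48.8 CPM in PGCs and 0.256 and 0.518 CPM in soma at 24 hpf. The groups of 24 hpf were not set apart across genes. The somatic libraries of that stage had a Spearman correlation of 0.910 with each other, while the first had 0.921 and 0.880 with the PGC libraries and the second 0.941 and 0.946.

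In the zebrafish gastrula, the ectoderm facing the dorsal side is set aside as neural plate, and transcription factors of the SoxB1, LIM-homeodomain, Fez and Hes families pattern it along the body axes. PGCs take another path: they inherit germ plasm from the egg and migrate among somatic cells without joining a germ layer. Genes that switch on in the somatic gastrula are therefore of interest in PGCs, where germ plasm factors are known to hold back somatic programmes.

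The regulators of transcription made up most of the signal. Their summed level was 26.0 and 34.4 CPM in the PGC libraries of 7 hpf, against 318 and 217 CPM in the somatic libraries. SOX2, a SoxB1 factor that keeps neural progenitors undifferentiated, had 8.41 and 9.0 CPM in 7 hpf PGCs, against 96.5 and 43.3 CPM in 7 hpf soma. At 24 hpf SOX2 had 38.4 and 13.9 CPM in PGCs, against 49.1 and 27.9 CPM in soma. The somatic libraries of 7 hpf were thus both well above the PGC libraries, while the ranges crossed at 24 hpf.

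The LIM-homeodomain gene lhx5, which acts in the forming forebrain, had 9.49 and 10.4 CPM in 7 hpf PGCs, against 86.4 and 50.3 CPM in 7 hpf soma. At 24 hpf it had 8.68 and 4.54 CPM in PGCs and 6.01 and 5.08 CPM in soma, so that the groups overlapped at a low level. PRDM14 encodes a PR-domain regulator that mouse embryos need to form their germ cells. In the zebrafish gastrula it stood on the somatic side, with 5.09 and 6.57 CPM in PGCs and 80.3 and 48.4 CPM in soma. At 24 hpf PRDM14 was at 1.47 and 3.57 CPM in PGCs, against 4.54 and 1.66 CPM in soma, again with overlap.

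FEZF2, a zinc-finger repressor of the anterior neural plate, had 0 and 2.00 CPM in 7 hpf PGCs, against 9.98 and 25.5 CPM in 7 hpf soma. Its levels at 24 hpf were 7.64 and 2.61 CPM in PGCs and 11.3 and 5.60 CPM in soma. HES3, a basic helix-loop-helix repressor of the Hes family, had 1.66 and 1.29 CPM in PGCs and 19.0 and 10.6 CPM in soma at 7 hpf. At 24 hpf all 4 libraries of HES3 lay low, at 0.949 and 1.74 CPM in PGCs and 1.60 and 1.45 CPM in soma.

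The ID named DBX1, a homeobox gene of progenitor domains in the neural tube, had 0 and 2.86 CPM in 7 hpf PGCs, against 11.6 and 14.4 CPM in 7 hpf soma. At 24 hpf DBX1 had 6.88 and 5.55 CPM in PGCs and 11.3 and 7.20 CPM in soma, which did not overlap. Last among the regulators, znfl1g belongs to a family of closely related zinc-finger genes. It had 1.34 and 2.22 CPM in PGCs and 14.4 and 24.8 CPM in soma at 7 hpf. Its estimated counts were fractional, so reads shared with its relatives were divided between them and its level is uncertain.

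**Figure D1:**
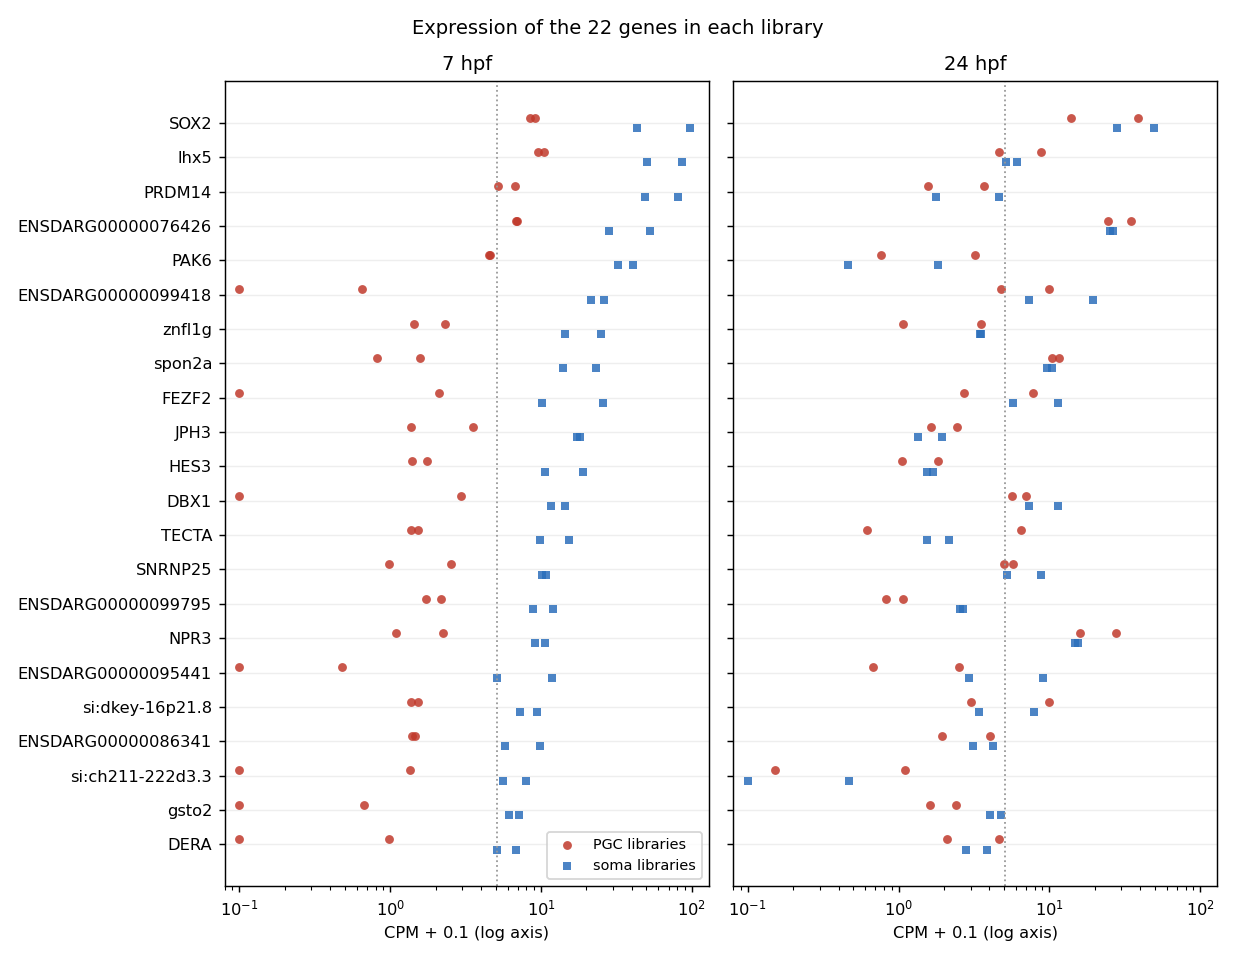
Level of each of the 22 genes in every library, as CPM + 0.1 on a log axis, with PGC libraries as circles and somatic libraries as squares in a panel for 7 and a panel for 24 hpf, and a dotted line at the 5 CPM minimum. At 7 hpf the marks stand apart because the genes were chosen for that gap (SOX2 at 8.41 and 9.0 CPM in PGCs, against 96.5 and 43.3 CPM in soma), while at 24 hpf 16 of the 22 genes overlap between PGCs and soma.

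The genes of signalling, matrix and membrane together had 10.7 and 11.0 CPM in 7 hpf PGCs, against 90.7 and 98.9 CPM in 7 hpf soma. Most abundant was PAK6, a p21-activated serine/threonine kinase, with 4.50 and 4.43 CPM in PGCs and 40.9 and 32.2 CPM in soma. At 24 hpf PAK6 had 0.664 and 3.09 CPM in PGCs and 1.73 and 0.363 CPM in soma, which overlapped. JPH3, a junctophilin that ties the plasma membrane to the endoplasmic reticulum in excitable cells, followed the same course, with 1.27 and 3.43 CPM in PGCs and 17.2 and 17.9 CPM in soma at 7 hpf. Its values at 24 hpf were 2.33 and 1.55 CPM in PGCs and 1.85 and 1.24 CPM in soma.

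NPR3 and spon2a showed another course. NPR3, the receptor that clears natriuretic peptides, had 2.15 and 1.00 CPM in 7 hpf PGCs, against 9.09 and 10.5 CPM in 7 hpf soma. At 24 hpf NPR3 had 15.8 and 27.6 CPM in PGCs, against 14.6 and 15.3 CPM in soma. The gene spon2a, which encodes a secreted spondin of the extracellular matrix, had 1.47 and 0.715 CPM in PGCs and 13.8 and 23.0 CPM in soma at 7 hpf. Its 24 hpf values were 10.3 and 11.5 CPM in PGCs and 9.59 and 10.3 CPM in soma. For both genes the PGC libraries of 24 hpf were the higher ones on the CPM scale, but by margins under which the groups overlapped once library sizes were scaled by the trimmed mean of M-values (TMM).

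TECTA, a protein of the tectorial membrane in the inner ear, had 1.27 and 1.43 CPM in 7 hpf PGCs and 9.75 and 15.3 CPM in 7 hpf soma. At 24 hpf it had 0.522 and 6.42 CPM in PGCs, with PGC libraries far apart, and 2.05 and 1.45 CPM in soma. The effective length that the authors' counting gave TECTA was 2880 and 4830 bases in the PGC libraries of 7 hpf, against 8216 and 8224 bases in the somatic ones. Its levels per length are therefore not comparable between PGCs and soma at that stage.

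Of the genes for RNA processing and metabolism, SNRNP25 encodes a protein of the minor spliceosome, which removes a rare class of introns. It had 0.880 and 2.43 CPM in 7 hpf PGCs, against 10.6 and 10.1 CPM in 7 hpf soma, and at 24 hpf 5.60 and 4.88 CPM in PGCs, against 8.70 and 5.13 CPM in soma. The omega-class glutathione transferase gsto2 had 0 and 0.572 CPM in PGCs and 6.06 and 7.10 CPM in soma at 7 hpf, and 1.52 and 2.32 CPM in PGCs and 4.67 and 3.94 CPM in soma at 24 hpf. DERA, an aldolase that breaks down deoxyribose phosphate, had 0.880 and 0 CPM in PGCs and 5.02 and 6.71 CPM in soma at 7 hpf. At 24 hpf the DERA libraries overlapped, at 4.56 and 1.98 CPM in PGCs and 2.69 and 3.78 CPM in soma.

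Of the IDs without a name, ENSDARG00000076426 had 6.85 and 6.72 CPM in 7 hpf PGCs, against 52.5 and 28.3 CPM in 7 hpf soma, and 34.5 and 24.5 CPM in PGCs and 25.1 and 26.3 CPM in soma at 24 hpf. ENSDARG00000099418 had 0.548 and 0 CPM in PGCs and 26.1 and 21.4 CPM in soma at 7 hpf, and 9.86 and 4.65 CPM in PGCs and 19.4 and 7.24 CPM in soma at 24 hpf. ENSDARG00000095441 had 0 and 0.380 CPM in PGCs and 5.03 and 11.7 CPM in soma at 7 hpf, its PGC values resting on fewer than 3 counts in each library. The remaining pair of these 5 IDs, ENSDARG00000099795 and ENSDARG00000086341, had at most 2.06 CPM in PGCs and at least 5.69 CPM in soma at 7 hpf. At 24 hpf ENSDARG00000086341 had 1.85 and 3.96 CPM in PGCs and 4.16 and 3.01 CPM in soma, with overlap.

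Both genes with clone-based names were low in PGCs at 7 hpf by the rule. For si:dkey-16p21.8 the values were 1.27 and 1.43 CPM in PGCs and 9.31 and 7.19 CPM in soma, and for si:ch211-222d3.3 they were 0 and 1.26 CPM in PGCs and 7.79 and 5.48 CPM in soma. At 24 hpf, si:dkey-16p21.8 had 2.94 and 9.90 CPM in PGCs and 3.33 and 7.83 CPM in soma, and si:ch211-222d3.3 had 0.998 and 0.0507 CPM in PGCs and 0 and 0.372 CPM in soma. Counts were whole in every library for 17 of the 22 genes and fractional for znfl1g, ENSDARG00000099418, ENSDARG00000099795, ENSDARG00000095441 and si:ch211-222d3.3. For those 5, shared reads make the levels uncertain.

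Levels of different genes can be set side by side only per length, in TPM (the length-scaled transcript share that the authors deposited). In 7 hpf soma the highest mean TPM belonged to SOX2 (22.9), lhx5 (22.2) and PRDM14 (18), followed by si:dkey-16p21.8 (13.4), HES3 (13.3), PAK6 (11.2) and znfl1g (9.69). The effective length ranged over the 8 libraries by 52.2% of its median for PRDM14 and by 61.1% for znfl1g, which makes their TPM less certain. In the 19 members other than these and TECTA it ranged by at most 11.7%. The somatic replicates of 7 hpf differed in TPM. SOX2 had 36.1 and 9.79 TPM and lhx5 32.9 and 11.6 TPM, so SOX2 led in the first and lhx5 in the second. The order among neighbours was thus not fixed. SOX2 had 1306 and 451 counts there. TPM and CPM were also scaled differently between these libraries: spon2a had 13.8 and 23.0 CPM but 2.10 and 2.12 TPM. In 24 hpf soma SOX2 still led with a mean of 12.1 TPM, followed by si:dkey-16p21.8 (9.18), SNRNP25 (5.32), ENSDARG00000095441 (5.16) and DBX1 (4.44).

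Single members differed between the somatic replicates of 7 hpf, but the members as a set were split much like other genes. Of the 22, 11 were higher in the first somatic library and 11 in the second. Of the 8318 other genes with at least 5 CPM in both, 56.0% were higher in the first. The median ratio, first over second, was 1.01 for the members and 1.05 for those other genes. SOX2 was 2.23 times as high in the first, as CPM, whereas FEZF2 in the first was 0.391 of its level in the second. No gene was at 0 in both PGC libraries of 7 hpf, but 5 were at 0 in the first and 2 in the second.

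The margins of the selection are a description only. Just inside the fold limit stood DBX1, with 4.06 times as much in the lower somatic library as in the higher PGC library, then ENSDARG00000076426 (4.13) and SNRNP25 (4.15). Just outside stood rasd2a (3.95), ENSDARG00000077318 (3.88) and TUBA1A (3.86). SFRP1 and CRABP2 met the fold at 5.45 each but exceeded the PGC limit, at 48.0 and 66.7 CPM in the higher PGC library. DERA at 5.02 CPM was nearest inside the somatic minimum and ENSDARG00000103016 at 4.32 CPM nearest outside. In an edgeR quasi-likelihood fit over all 8 libraries, 16 of the 22 passed the call of lower in PGCs at 7 hpf (adjusted p under 0.05 and a log2 fold change of at least 1.5 in size), beside 1.83% of the 19885 genes tested. Since these libraries chose the genes, that count is no evidence about them. FEZF2, DBX1, TECTA, si:dkey-16p21.8, si:ch211-222d3.3 and DERA were the ones not called.

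Whether the gap persisted was asked of the 24 hpf libraries, which took no part in the selection. No member passed the test in either direction, and all 22 passed the filter on low counts. The background was as sparse: 0.0% of all genes tested were called lower and 0.0302% higher in PGCs, which is 6 genes. At an unadjusted p under 0.05, 1 member was lower and 0 were higher in PGCs, beside 1.06% and 1.97% of all genes tested. DESeq2 likewise called 0 of the 22 members, while it called 29 of all genes lower and 48 higher in PGCs. The median log2 fold change of the members, PGC minus soma, was −0.16, with quartiles of −0.63 and 0.23. It was −0.39 without the second PGC library of 24 hpf, −0.28 without the first, and −0.50 with limma on log2(TPM + 0.1). Over all genes tested the median was 0.02, and over the 8318 other genes with at least 5 CPM in both somatic libraries of 7 hpf it was −0.07.

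The 1 member with a low unadjusted p was ENSDARG00000099795, at 0.731 and 0.973 CPM in PGCs and 2.44 and 2.57 CPM in soma. Its log2 fold change was −1.56 ± 0.68 (SE), with an unadjusted p of 0.0471 and an adjusted p of 1 by edgeR's quasi-likelihood test with Benjamini-Hochberg adjustment. The interval width matters for the others. SOX2 differed by −0.55 ± 0.50 (SE) on the log2 scale, with a 95% interval of −1.67 to 0.58, and lhx5 by 0.25 ± 0.41, with an interval of −0.68 to 1.17. For 13 of the 22 genes the interval lay above −2, so a 4-fold deficit in PGCs at 24 hpf fell outside it, and for the remaining 9 such a deficit was within the interval.

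By role, 6 of the 7 transcriptional regulators had negative values at 24 hpf, between −0.70 and 0.25 with a median of −0.54, and none was called. Each of the 5 signalling, matrix and membrane genes had a positive value, from 0.14 for spon2a to 1.09 for TECTA, with a median of 0.56, and none was called either. With limma on log2(TPM + 0.1), spon2a and lhx5 had the opposite sign, at −0.16 and −0.11, and without the second PGC library of 24 hpf 4 of these 5 genes were negative, TECTA at −1.78, PAK6 at −0.61, spon2a at −0.03 and NPR3 at −0.01. Among the regulators, PRDM14 and HES3 were positive without the first PGC library of 24 hpf, at 0.376 and 0.285. SOX2, FEZF2, DBX1 and znfl1g stayed negative under every alternative. NPR3 stood at 0.56 ± 0.48 (SE) with a 95% interval of −0.53 to 1.65. The lowest value of all members was that of ENSDARG00000095441, −1.91 ± 1.03, at 2.42 and 0.576 CPM in PGCs and 8.99 and 2.82 CPM in soma.

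PGC and somatic libraries of 24 hpf did not overlap in CPM for 6 members. PGCs were lower for DBX1, gsto2, ENSDARG00000099795 and ENSDARG00000095441, which is 18.2% of the members beside 13.3% of all genes tested. PGCs were higher for spon2a and NPR3, which is 9.09% beside 19.1%. On TMM-scaled CPM, SNRNP25 joined the lower ones and JPH3 was the only higher one.

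**Figure D2:**
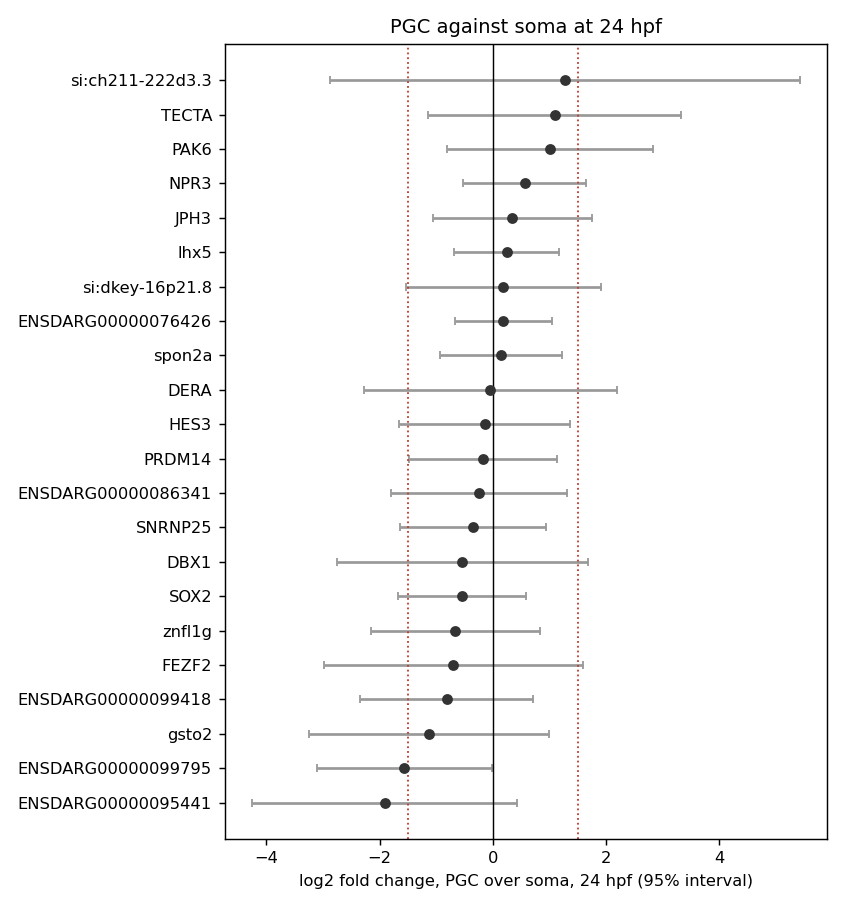
Log2 fold change at 24 hpf, PGC minus soma, of each of the 22 genes (points) with its 95% interval (bars) from the edgeR quasi-likelihood fit. The values spread around the median of −0.16, between −1.91 for ENSDARG00000095441 and 1.27 for si:ch211-222d3.3, and no gene was called.

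Changes between the stages share the 7 hpf libraries that chose the genes, so they are given without a test. Summed over the 22 genes, the PGC libraries had 162 and 137 CPM at 24 hpf and 50.5 and 61.1 CPM at 7 hpf. The somatic libraries had 197 and 144 CPM at 24 hpf and 549 and 433 CPM at 7 hpf. Some markers of somatic tissue also stood at like levels in both kinds of library at 24 hpf, and others did not. The collagen gene col1a1a had 1390 and 1500 CPM in PGCs and 1460 and 1800 CPM in soma, and the genes of extracellular matrix and adhesion summed to 7330 and 7280 CPM in PGCs and 7580 and 8190 CPM in soma. Genes of blood and vessel, in contrast, summed to 154 and 132 CPM in PGCs and 497 and 329 CPM in soma. Those of hatching gland and crystallin summed to 106 and 63.9 CPM in PGCs and 398 and 353 CPM in soma. The part of such tissue markers in the 24 hpf levels of the 22 genes was not tested.

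In soma, the 24 hpf libraries lay below both 7 hpf libraries for 17 members, beside 32.1% of all genes tested, and above them for NPR3 alone, beside 40.3%. In PGCs, they lay above for 13 members, beside 33.1%, and below for 4 (lhx5, PRDM14, PAK6 and ENSDARG00000099795), beside 42.0%. The other 8318 genes with at least 5 CPM in both somatic libraries of 7 hpf are the closer background. Of these, 60.4% lay lower and 16.9% higher in soma, and 12.3% lay higher and 70.7% lower in PGCs. The median ratio of means, 24 over 7 hpf, was 0.509 for the members and 0.556 for those other genes in soma, and 3.08 for the members and 0.451 for the other genes in PGCs. On TMM-scaled CPM the counts were 16 lower and 1 higher in soma and 13 higher and 0 lower in PGCs. Shares of the other genes were not computed on that scale, so these counts stand without a background. TMM scaling itself moved the difference of 24 minus 7 hpf by 0.69 in PGCs and by 0.24 in soma (log2).

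The members parted into 2 courses in soma, a division made after the values were seen. For 9 of them, PAK6, si:ch211-222d3.3, PRDM14, lhx5, JPH3, HES3, TECTA, znfl1g and ENSDARG00000099795, the somatic mean at 24 hpf was between 0.028 and 0.242 of that at 7 hpf. A ratio under 0.25 was thus found in 40.9% of the members, and in 15.4% of the other genes with at least 5 CPM in both somatic libraries of 7 hpf. For these 9 genes the PGC mean at 24 hpf was 0.421 to 2.57 times that at 7 hpf, and in none did both PGC libraries of 24 hpf exceed those of 7 hpf. PRDM14 is 1 example, with PGC levels of 1.47 and 3.57 CPM at 24 hpf and 5.09 and 6.57 CPM at 7 hpf.

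For the other 13 members, SOX2, FEZF2, DBX1, NPR3, spon2a, SNRNP25, gsto2, DERA, si:dkey-16p21.8 and the remaining 4 unnamed IDs, the somatic mean at 24 hpf was 0.463 to 1.53 times that at 7 hpf. In all 13 both PGC libraries of 24 hpf lay above both of 7 hpf, and the ratio of means was 2.19 to 26.5. The highest ratio, that of ENSDARG00000099418, is uncertain, as it rests on 5.6 and 0 PGC counts at 7 hpf. SOX2 in PGCs was 3.0 times as high at 24 hpf as at 7 hpf, spon2a 10.01 times and NPR3 13.8 times. For 8 of them the somatic libraries of 24 hpf also lay below those of 7 hpf, a pair of courses that 0.699% of all genes tested and 0.613% of the other genes at the somatic minimum had. For spon2a and NPR3 the order of PGCs and soma turned between 7 and 24 hpf without overlap at either stage, as it did for 1.57% of all genes tested and 1.62% of those other genes. A low starting level in PGCs and a high one in soma were conditions of the selection, so rises in PGCs and falls in soma were both favoured by it. The other genes were not chosen so, and began at a median of 42.2 CPM in 7 hpf PGCs, against 1.45 CPM for the members. With a gap of at least 4-fold at 7 hpf and like levels at 24 hpf, a gene that kept its somatic level had to rise in PGCs. The contrast between the courses thus follows in part from the selection.

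**Figure D3:**
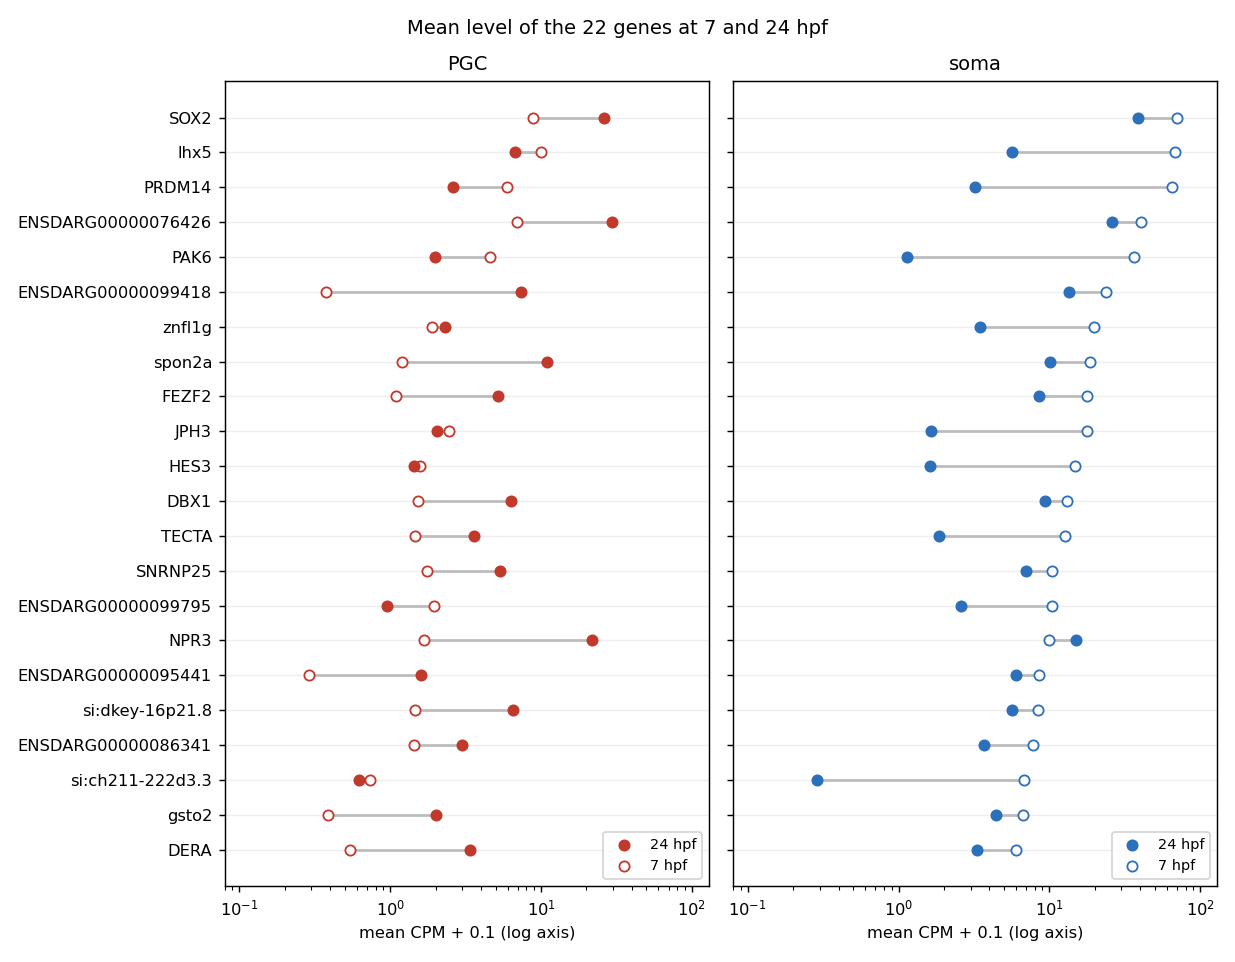
Mean CPM + 0.1 of each of the 22 genes at 24 hpf (filled) and at 7 hpf (open) on a log axis, with PGCs and soma in separate panels. In soma 21 genes had the lower mean at 24 hpf, NPR3 being the exception, and in PGCs 15 genes had the higher mean at 24 hpf, beside 73.9% and 18.3% of the other genes at the somatic minimum.

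At 24 hpf, 9 members (40.9%) still had at least 5 CPM in both somatic libraries, against 83.3% of the other genes that met that minimum at 7 hpf. In PGCs of 24 hpf, 5 members (22.7%) reached it, against 84.5% of those other genes. Another 11 of the 22 members were under 5 CPM in both somatic libraries of 24 hpf, against 9.41% of the other genes. The members also began lower, with a median of 13.9 CPM in 7 hpf soma against 32.3 CPM for the other genes, and the part of that starting level in these shares was not tested.

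SOX2 and FEZF2 belong to a list of 48 neural ectoderm genes, of which 24 could be matched because their symbol belonged to a single ID, and 22 of these are not among the members. At 7 hpf, 5 of these 22 others were called lower in PGCs, beside 1.83% of all genes tested, and 1 was called higher, beside 3.61%. Their median log2 fold change was −1.77, beside 0.00 over all genes tested. Over the 8318 other genes with at least 5 CPM in both somatic libraries of 7 hpf it was −0.35. The called genes were ZIC1, sox19a, SOX3, GBX1 and FOXD3, all transcription factors of the neural plate or its border. The libraries that gave these calls had also chosen the members, and the list was chosen with earlier results of these data known. The calls are thus a description and no separate evidence about the members. ZIC1 had 1.17 and 5.86 CPM in PGCs, against 11.2 and 60.3 CPM in soma (log2 fold change −3.82, adjusted p = 0.0317 by edgeR's quasi-likelihood test). The SoxB1 factors sox19a and SOX3 were far more abundant in PGCs than SOX2 was: sox19a had 83.0 and 89.0 CPM in PGCs and 350.0 and 246 CPM in soma, and SOX3 had 65.1 and 40.0 CPM in PGCs and 195 and 167 CPM in soma. Both were called lower (adjusted p = 0.0143 and 0.0148 by edgeR), at −2.24 and −2.22 on the log2 scale. These levels per gene are not divided by length and order the genes only roughly.

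Other members of the list did not pass the test and had their own levels. OTX1, a homeobox gene of the anterior neural plate, had 55.9 and 59.2 CPM in PGCs and 184 and 187 CPM in soma. The maternal SoxB1 gene sox19b had 101 and 190.0 CPM in PGCs and 64.4 and 54.2 CPM in soma. The gene called higher, sox21a, had only 1.47 and 1.29 CPM in PGCs and 0 counts in both somatic libraries. At 24 hpf, 0 of these others were called in either direction, and their median was −0.23. ZIC1, for example, had 66.9 and 54.5 CPM in PGCs and 75.2 and 50.7 CPM in soma at that stage. The 7 hpf count of 5 rests on the libraries: it was lower whenever 1 library of 7 hpf was left out. The number called lower over all genes moved too, and fell most without the second PGC library. Such a fit leaves 1 library in a group, so its counts are not given here.

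**Figure D4:**
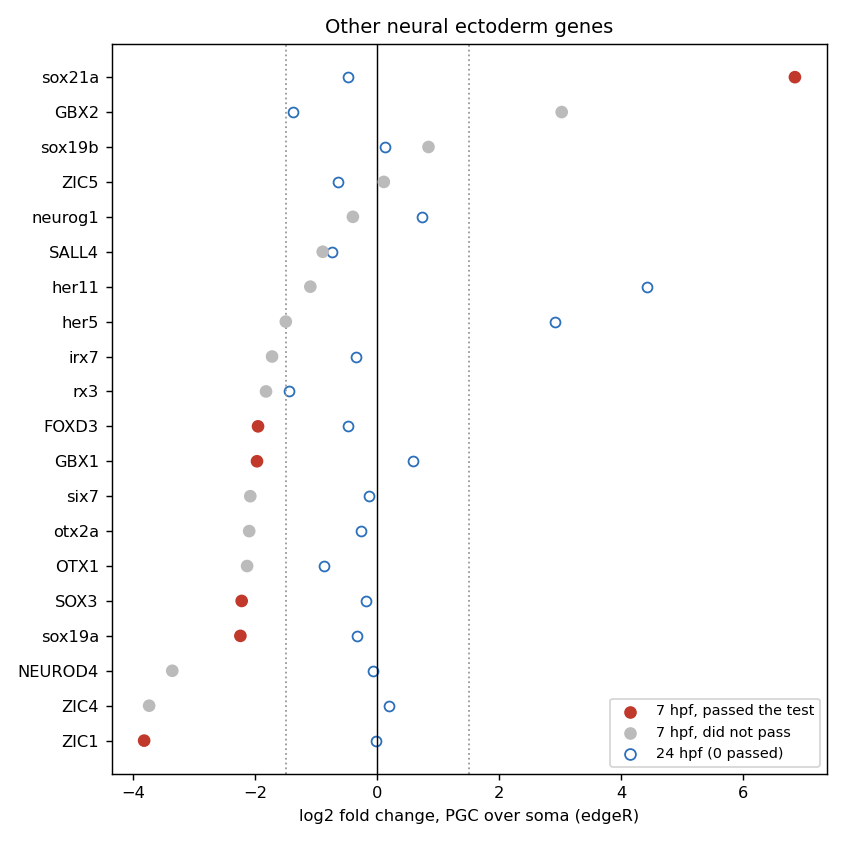
Log2 fold change, PGC minus soma, of 20 of the 22 other neural ectoderm genes at 7 hpf (filled points, red where called) and 24 hpf (open points), with dotted lines at −1.5 and 1.5. Most points of 7 hpf lie below 0 (median of the 22 others −1.77). Most of 24 hpf lie nearer to 0 (median −0.23), but her11 (4.42), her5 (2.91), neurog1 (0.729) and ZIC5 (−0.646) lie farther from it. The genes hmx1 and FEZF1, at 0 CPM in every library of 7 hpf, are not drawn but count in the median. The 7 hpf values of sox21a, with somatic counts of 0, and NEUROD4, at 0 CPM in both PGC libraries, depend on the fit.

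Markers of other cells moved with the 7 hpf groups. Of 31 genes of the epidermis and enveloping layer, the flat outer epithelium of the embryo, 6 were called higher and 6 lower in PGCs. Over all genes tested these shares were 3.61% and 1.83%. Higher were the epithelial genes krt18a.1, evpla, GRHL1, grhl3, pfn1 and anxa1c, with krt18a.1, a keratin, at 2700 and 1440 CPM in PGCs and 151 and 487 CPM in soma. Lower were the ectodermal regulators TFAP2A, TFAP2C, TP63, foxi1, msx1b and msx3, with TFAP2C at 64.9 and 102 CPM in PGCs and 330.0 and 275 CPM in soma. The summed level of the list was 22300 and 11000 CPM in PGCs and 2150 and 5100 CPM in soma at 7 hpf. The genes foxi3b, krt18b and dlx4b were at 0 in both PGC libraries of 7 hpf, and at no more than 1.25 CPM in soma. The part of this list in the low values of the 22 genes was not tested. Over all genes tested, 3.61% were called higher in PGCs at 7 hpf and 0.0302% at 24 hpf. Of 16 germ plasm and germ cell genes, 9 were called higher in PGCs at 7 hpf and 5 at 24 hpf. One of them, ddx4, which encodes the germ cell helicase Vasa, was at 1690 and 2090 CPM in PGCs and at 69.5 and 25.3 CPM in soma at 7 hpf.

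None of the other gene lists held any of the 22 genes. Beside their counts at 7 hpf stand 1.83% of all genes tested called lower and 3.61% called higher. In PGCs, 2 genes were lower and 1 higher among 33 of mesoderm, and likewise 2 lower and 1 higher among 22 of the Bmp pathway. Lower calls alone were 2 of 19 in the Notch pathway, 2 of 12 in the retinoic acid pathway, 1 of 24 in the Fgf pathway and 1 of 25 of the yolk syncytial layer and yolk. The median log2 fold change at 7 hpf was −1.28 for the retinoic acid list, −1.0 for Bmp, −0.88 for mesoderm, −0.11 for Fgf and 0.07 for Notch. It was −0.87 for endoderm, −0.72 for organizer and axial mesoderm and −0.44 for Nodal. For extracellular matrix and adhesion it was −0.4, for Wnt −0.31, for Eph and ephrin −0.2 and for yolk 0.11. Among 29 genes of extracellular matrix and adhesion, 1 was lower and 1 higher, and among 10 of the Nodal pathway 1 was higher. There were 0 calls among 12 genes of endoderm, 17 of organizer and axial mesoderm, 22 of the Wnt pathway, 8 Eph and ephrin genes, 1 of chemokine guidance, 10 of blood and vessel, 11 of muscle and 5 of hatching gland and crystallin. Genes of blood and vessel summed to at most 2.81 CPM in any 7 hpf library. Those of hatching gland and crystallin reached at most 2.13 CPM, and those of muscle 17.0 CPM. For these scarcely expressed lists, the absence of calls at 7 hpf says little. At 24 hpf, the germ cell list alone held calls. Muscle genes, a sign of which tissues the libraries held, summed to 11800 and 18800 CPM in PGCs and 2830 and 19100 CPM in soma at 24 hpf, with no call. Their part in the 24 hpf values of the 22 genes was not tested, and without either of the somatic libraries of that stage the members' median was −0.17 with 0 called.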

How the data were processed

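RNA-seq was read from PGCs and somatic cells of 7 and 24 hpf zebrafish embryos, 8 libraries in all. The authors trimmed reads with Trim Galore, aligned them to danRer10 with STAR and estimated expression with RSEM. They deposited expected counts, TPM and effective length in bases per Ensembl gene ID. The strand setting of the counting is not given in the sources used here. CPM was computed from the expected counts, and 92 spike-in rows, at 0 counts, were left out. Names matched 26790 of 34289 IDs. Symbols are printed as the name table gives them, so capitals do not tell zebrafish duplicates apart. The 10 IDs that the selection leaves out did not meet its limits.

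Expected counts were rounded and tested with edgeR 4.0.16 (R 4.3.3, filterByExpr, TMM, quasi-likelihood, 4 group means) with Benjamini-Hochberg adjustment over 19885 genes. DESeq2 1.42.0 and limma 3.58.1 on log2(TPM + 1) or log2(TPM + 0.1) were alternatives. The scripts were checked on simulated counts in which 200 genes changed by 3 log2 units between PGCs and soma at 24 hpf. These were drawn from genes above a minimum mean count, and before the change each gene had 1 mean level in all 4 groups. The edgeR test recovered 60% of them, DESeq2 77.5% and limma 59%. Of the calls, 1.64% were false with edgeR, 32.6% with DESeq2 and 3.28% with limma. An absent call at 24 hpf can therefore miss a large change. Members scarce at 24 hpf are not described by these shares, such as si:ch211-222d3.3, with 21.0 and 1.05 counts in PGCs and 0 and 7.18 in soma. The members and gene lists were chosen with earlier results of these data known. Named genes were the 12 members with the highest somatic TPM at 7 hpf, up to 4 members per list, members at 0 in both PGC libraries of 7 hpf, members called or not overlapping at 24 hpf, the 5 highest in somatic TPM at 24 hpf, and the 3 genes on either side of the fold limit. The remaining members, and non-members of lists, were named after their values were seen. The paper describes the 2 replicates of its marker expression figure as biologically independent. The labels do not say whether replicates came from separate clutches, so p-values measure only the spread between these libraries. One gene of the neural ectoderm list is not reported here and was left out of that list. Limits from 0 counts cover counting error only.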

Additional observations from a re-analysis of the deposited data

Results flagged for a closer look

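In 8 of the genes, PGC levels were higher and somatic levels lower at 24 hpf than at 7 hpf, in every library, a pattern held by 0.699% of all genes tested and by 0.613% of the other genes with at least 5 CPM in both somatic libraries of 7 hpf. The ratio of PGC means, 24 over 7 hpf, was 26.5 for ENSDARG00000099418, 10.01 for spon2a, 7.42 for DERA and 6.71 for gsto2. It was 4.35 for DBX1, 4.35 for ENSDARG00000076426, 3.17 for SNRNP25 and 2.19 for ENSDARG00000086341. Some of these ratios are uncertain because they rest on few PGC counts at 7 hpf. These were 5.6 and 0 for ENSDARG00000099418, 9 and 0 for DERA, and 0 and 4 for gsto2. The difference between the courses of PGCs and soma was not tested, because the genes were chosen as low in PGCs and high in soma at 7 hpf. That choice favours this pattern, and the other genes were not chosen so. On TMM-scaled CPM the somatic libraries of ENSDARG00000076426 overlapped between stages.

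For spon2a and NPR3 both PGC libraries were below both somatic libraries at 7 hpf and above them at 24 hpf, where the log2 fold changes, PGC minus soma, were 0.14 and 0.56. The same pattern was held by 1.57% of all genes tested and by 1.62% of the other genes at the somatic minimum. This change of sign was not tested, and neither 24 hpf value was called. On TMM-scaled CPM both genes overlapped between PGCs and soma at 24 hpf.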

How the results depend on the processing

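Number of members called at 24 hpf: 0 under all 14 alternatives, each tool, filter, scaling and left-out library included. Of the 22 members, limma and the fits on the 24 hpf libraries alone tested 21, and the filter on a mean of 50 counts kept 19. Over all genes, DESeq2 called 29 lower and 48 higher in PGCs, and edgeR with no count filter 40 and 63. The median log2 fold change of −0.16 ranged from −0.39 to −0.17 with 1 library of 24 hpf left out (the lone library then assumed to vary like the other groups). It was −0.50 with limma on log2(TPM + 0.1). Replicate numbers were shared by 2 pairs at each stage, whose deviations correlated at 0.0775 (7 hpf) and 0.199 (24 hpf), too few pairs to show more than a shared number. With a replicate block the median was −0.17 over all 8 libraries and −0.24 over those of 24 hpf, with 0 called in both. The selection found 52 genes on TMM-scaled CPM, all 22 members among them, 4 at a fold of 8 and 145 at a fold of 2. On TPM it found 24 genes, of which 9 were members. The count of 9 members at 5 CPM or more in 24 hpf soma became 2 at 5 TPM, 3 at 10 CPM and 16 at 2 CPM, and 10 without either library. The 5 neural ectoderm genes called lower at 7 hpf, beside 364 of all genes, became 9 with DESeq2, beside 701. They became 10 with no count filter, beside 775, and 6 with a replicate block, beside 353. With limma on log2(TPM + 1) and log2(TPM + 0.1), 2 and 0 of 20 tested were called, beside 112 and 67 of all genes. The neural count thus moved along with the number called over all genes in these fits. It was also lower with 1 library of 7 hpf left out. These alternatives for the neural list were chosen after seeing the data. With adjusted p-values this high, an absent call says little of stability: the sign of the log2 fold change turned under at least 1 alternative for 12 of the 22 genes and under none for 10. Depth limits the members most in 7 hpf PGCs, where they had 0 to 97 and 0 to 73 counts.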
